A study of Mus musculus with 8 samples.

Results

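Chemokine receptors were examined in 4T1 mammary tumors grown with or without CD95 in mice with or without a working lymphoid immune system. The 9 receptors were Ccr1, Ccr2, Ccr3, Ccr7, Cxcr2, Cxcr3, Cxcr4, Cxcr6 and Cx3cr1. They were found by matching the Ensembl identifiers of the count tables to mouse gene symbols, and 9 of 9 were present among the 25006 genes counted. 4T1 is a mouse mammary carcinoma line of Balb/c origin that serves to model triple-negative breast cancer, and CD95 is a death receptor, the product of the Fas gene. RNA of tumors was sequenced in 8 libraries, 2 for each of 4 groups. The first group, NSG wild type, consisted of the parental line and of a line stably expressing vCas9, both with intact CD95, grown in NSG mice. In the second, NSG knockout, CRISPR/Cas9 knockout clones 54 and 69 were grown in the same host. The last groups, called Balb/c wild type and, for the clones, Balb/c knockout, held the same 4 lines in Balb/c mice. All tumors were raised by injection of cells into the fat pad and were taken within 20 days. The age of the mice, and whether a library came from 1 tumor or from a pool, are not given in the sources used here.

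NSG mice lack T, B and NK cells as well as the common gamma chain of several cytokine receptors, but keep neutrophils, monocytes and macrophages. They are also on another strain background than Balb/c mice, so immune deficiency and strain cannot be told apart here. Both knockout lines are clones, which the labels do not say of the wild-type lines, and clonal origin and CD95 status likewise cannot be told apart. The 2 libraries of a group come from different lines, so their spread contains differences between lines, and nothing says that a line was sampled in more than 1 tumor per host.

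Chemokine receptors are G-protein-coupled receptors with which leukocytes sense gradients of chemokines and move along them into tissue. Receptors of the CC and CXC classes are named for the spacing of cysteines in their ligands, and each leukocyte type carries a characteristic set. In tumors the set of receptors read in bulk RNA reflects both the leukocytes present and how strongly each cell transcribes the gene. In bulk samples, fewer cells of a type and less RNA per cell cannot be told apart, and this holds for every level below.

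Of the 9 genes, 5 lie on chromosome 9 in the GRCm38 build with GENCODE M21 annotation, which may not be the annotation the authors counted with. Cxcr6 (ENSMUSG00000048521, 123806475 to 123811760, plus strand), Ccr1 (ENSMUSG00000025804, 123962124 to 123968692, minus strand), Ccr3 (ENSMUSG00000035448, 124021972 to 124031689, plus strand) and Ccr2 (ENSMUSG00000049103, 124101950 to 124113557, plus strand) follow each other in this order. Cx3cr1 (ENSMUSG00000052336, 119901616 to 120069879, minus strand) lies apart on the same chromosome. Cxcr2 (ENSMUSG00000026180, 74153989 to 74161246, plus strand) and Cxcr4 (ENSMUSG00000045382, 128588199 to 128592293, minus strand) are on chromosome 1. Ccr7 (ENSMUSG00000037944, 99144196 to 99155077, minus strand) is on chromosome 11 and Cxcr3 (ENSMUSG00000050232, 101731535 to 101734269, minus strand) on chromosome X. All 9 are annotated as protein-coding. Cxcr6 lies within the span of Fyco1 on the opposite strand, but the 2 genes share 0 exon bases. The span of Cx3cr1 overlaps those of 9 other genes and its exons share 78 bases with 1 of them, the antisense gene Gm33858, whose reads cannot be told apart from those of Cx3cr1 over these bases if strand was not used. Of the 50-base stretches of the transcripts, 6.68% in Cxcr2, 1.91% in Ccr2 and 1.06% in Cx3cr1 also occur in other genes, and reads from these stretches could have been lost or misassigned. None of the stretches of the other 6 receptors occurs elsewhere in the annotated transcripts.

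Promoters are shown for Ccr3, Cxcr6 and Cxcr4, because these 3 receptors alone passed the test between hosts in both genotypes under every processing alternative tried, each with the higher level in Balb/c. The sequences are the bases upstream of the RefSeq start site in the GRCm38.p6 build, written in the direction of the gene, and 8 of the 9 receptors had an entry. Capitals mark matches, on either strand, to the letters AGATAA for GATA factors, TGTGGT for RUNX factors, GAGGAA for ETS factors such as PU.1, TTCNNNGAA for STAT factors, TGCGCA for NRF1 or TATAAA for a TATA box. The Ccr3 sequence covers chr9:124021721-124021970 on the plus strand, the Cxcr6 sequence chr9:123806227-123806474 on the plus strand and the Cxcr4 sequence chr1:128592300-128592549 on the minus strand.
Ccr3: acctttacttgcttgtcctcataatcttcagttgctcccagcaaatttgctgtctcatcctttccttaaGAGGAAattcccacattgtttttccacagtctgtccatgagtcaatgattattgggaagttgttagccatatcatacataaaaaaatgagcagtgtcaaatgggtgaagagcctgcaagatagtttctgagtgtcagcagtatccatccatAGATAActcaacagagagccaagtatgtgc
Cxcr6: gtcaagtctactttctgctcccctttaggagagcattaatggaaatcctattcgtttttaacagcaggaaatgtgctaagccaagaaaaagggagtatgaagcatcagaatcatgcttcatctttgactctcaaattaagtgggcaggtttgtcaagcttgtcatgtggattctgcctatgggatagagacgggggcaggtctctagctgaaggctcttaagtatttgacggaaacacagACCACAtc
Cxcr4: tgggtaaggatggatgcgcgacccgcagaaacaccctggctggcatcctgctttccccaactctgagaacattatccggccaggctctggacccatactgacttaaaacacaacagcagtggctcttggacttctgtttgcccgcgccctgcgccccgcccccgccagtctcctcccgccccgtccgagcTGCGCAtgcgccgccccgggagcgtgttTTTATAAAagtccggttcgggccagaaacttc
The 3 promoters held different matches. In Ccr3 the letters AGATAA began 30 bases upstream of the start site, and GAGGAA began 181 bases upstream. In Cxcr6, TGTGGT was matched on the opposite strand from 10 bases upstream. The Cxcr4 promoter held the palindrome TGCGCA from 60 bases upstream, followed by overlapping matches to TATAAA on both strands. Among 27025 promoters of the same 250-base length, AGATAA occurred in 10.3%, TGTGGT in 14.2%, GAGGAA in 23.1%, TATAAA in 13% and TGCGCA in 6.66%. No match to TTCNNNGAA, found in 7.18% of promoters, was present in any of the 8 receptor promoters. Of the receptors not shown, GAGGAA was matched in Ccr1, Cxcr2 and Cxcr3, TGTGGT in Ccr1, Cxcr3 and Cx3cr1, and AGATAA in Ccr2. GENCODE exons fill 250 of the 250 bases upstream of the RefSeq start in Cx3cr1, 233 in Ccr2 and 122 in Cxcr3. The matches of these 3 receptors thus lie in annotated exons. A match is a description of the letters and not evidence of a bound site.

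Total counts ranged from 8.68 M in an NSG knockout library to 19.7 M in a Balb/c knockout library, so that 3 counts corresponded to between 0.159 and 0.321 CPM (counts scaled to a depth common to all libraries, here on TMM-scaled library totals; such floors cover counting error only). Fas was read at 12.9 to 33.9 CPM in the NSG tumors and 27.1 to 51.6 CPM in the Balb/c tumors, and the knockout and wild-type libraries overlapped in NSG but not in Balb/c. Small CRISPR/Cas9 lesions and host cells both leave Fas RNA in place, so these counts do not test the knockout, which rests on the labels. Il2rg, the common gamma chain gene deleted in NSG mice, was at 5.82 to 7.49 CPM in the NSG tumors against 98.3 to 157 CPM in the Balb/c tumors. The summed level of 9 T cell markers was 5.14 to 11.8 CPM in NSG and 383 to 507 CPM in Balb/c. The NK cell marker Ncr1 was at 0 counts in all 4 NSG libraries. Of the same 7 NK cell markers, Klra8 went the other way, with 14 to 26 counts in NSG and 0 in Balb/c. Tumor epithelial markers such as Cdh1 and Krt8 were read in every library. The Balb/c tumor of clone 54 stood apart from the others, with the highest summed level of 8 macrophage markers (10700 CPM, against 1710 to 4360 CPM elsewhere) and the lowest of 10 neutrophil markers (871 CPM, against 1560 to 7920 CPM). Receptor values without this tumor are given further on.

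Two-sided tests used edgeR's quasi-likelihood method on all 8 libraries, with Benjamini-Hochberg adjustment over all 15310 genes tested and a threshold of 0.05. All 9 receptors passed the filter on low counts, and the lowest count of any of them in any library was 14. In wild-type tumors, 7 of 9 receptors differed between hosts. Ccr2, Ccr3, Ccr7, Cxcr3, Cxcr4 and Cxcr6 were higher in Balb/c and Cx3cr1 was lower. Of all genes tested, 31.5% passed in this comparison, 15.3% higher and 16.2% lower in Balb/c. The median log2 fold change of the 9 receptors was 1.80, and that of all genes -0.08. In knockout tumors 5 of 9 passed, namely Ccr2, Ccr3, Ccr7, Cxcr4 and Cxcr6, all of them higher in Balb/c. There, 31.1% of all genes passed, 15.7% higher and 15.4% lower, and the median was 1.52 for the receptors against 0.02 for all genes. A fit with cell line as a block was possible because every line grew in NSG and in Balb/c mice. With it, 6 receptors and 2073 genes (13.5%) passed in wild-type tumors instead of 7 and 4825. In knockout tumors 4 receptors and 2878 genes (18.8%) passed instead of 5 and 4757. The receptor lost in both was Ccr2.

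The libraries of the 2 hosts did not overlap for 9 of 9 receptors in wild-type tumors, 8 higher and 1 lower in Balb/c, where 76.4% of all genes did not overlap, 35.4% higher and 41% lower. In knockout tumors they did not overlap for 8 of 9, 7 higher and 1 lower, against 64.2% of all genes, 32.4% higher and 31.9% lower. With groups of 2 libraries, such separation is therefore frequent across the whole table. The share of all genes is not reported here for knockout against wild type. Separation of those groups, where given below, describes the levels only.

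The effect of CD95 knockout passed the threshold for 0 of 9 receptors in either host. In NSG tumors 2 of all genes passed (0.0131%), and in Balb/c tumors 27 passed (0.176%). At an unadjusted p under 0.05, 3 receptors passed in NSG, Ccr3 and Cxcr3 with higher and Ccr7 with lower values in the knockout, where 14% of all genes did, 6.78% higher and 7.25% lower. In Balb/c also 3 passed, Ccr2 and Cxcr3 with higher and Ccr7 with lower values, where 30.9% of all genes did, 16.6% higher and 14.3% lower. DESeq2, run as an alternative, called 2 receptors in each host, Ccr7 lower and Cxcr3 higher. They were among 340 genes (2.22%) in NSG and 2208 genes (14.4%) in Balb/c. For the dependence of the knockout effect on the host, edgeR called 0 receptors and 0 genes (0%). At an unadjusted p under 0.05 it gave 2 receptors, Cxcr2 and Cxcr3, both with a lower knockout value in Balb/c than in NSG. At that p 22.5% of all genes passed, and 10.1% in that direction. DESeq2 called 1 receptor, Cxcr2, among 974 genes (6.36%). The comparisons share groups of libraries, so the host and knockout values of a receptor are not independent of each other.

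**Figure D1:**
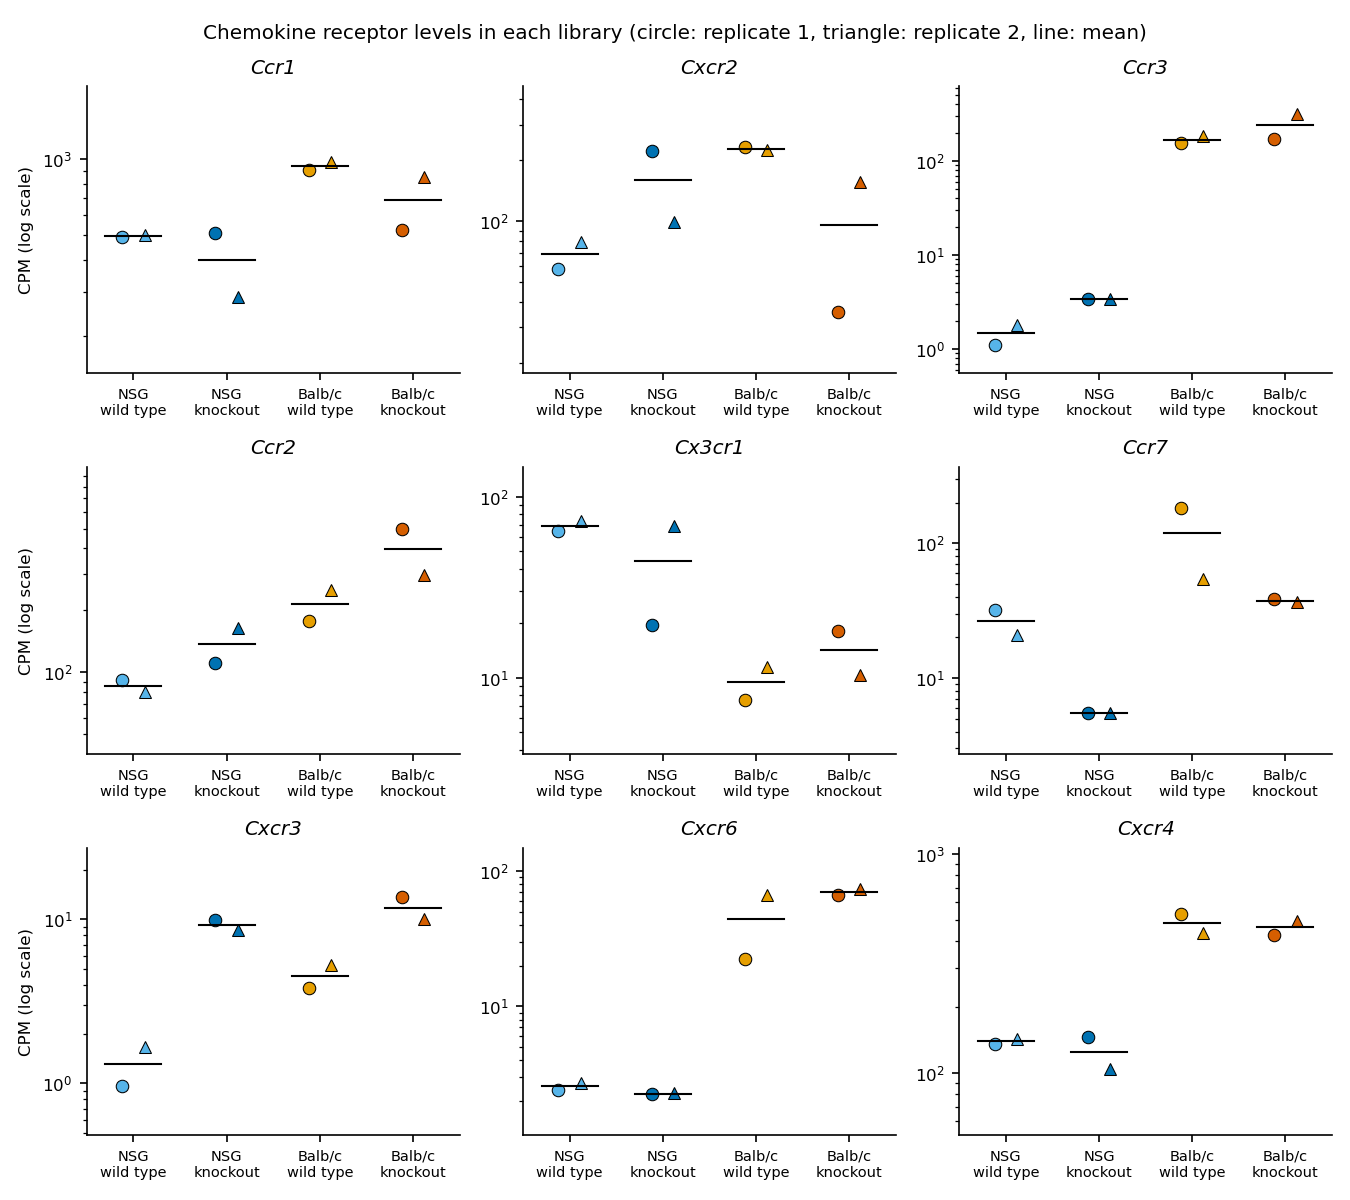
Level of each receptor in each of the 8 libraries, in CPM on a log scale that differs between panels. Circles are replicate 1 (parental line or clone 54), triangles replicate 2 (vCas9 line or clone 69), and lines the mean of a group. Ccr3 and Cxcr6 separate the hosts most widely, and Cx3cr1 is the receptor with lower values in Balb/c in all 4 lines.

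Receptors of granulocytes and other phagocytes were Ccr1, Cxcr2 and Ccr3. Ccr1, a receptor for Ccl3, Ccl5 and related chemokines on neutrophils, monocytes and macrophages, had the highest level per length of exon in 7 of 8 libraries. In each pair of values that follows, the parental line or clone 54 comes first. Ccr1 was at 492 and 502 CPM in NSG wild type, 512 and 287 in NSG knockout, 906 and 970 in Balb/c wild type, and 527 and 850 in Balb/c knockout. All Balb/c libraries were above all NSG libraries, although clone 54 gave almost the same level in both hosts. The difference between hosts did not pass in wild-type tumors (log2 fold change 0.92, SE 0.33, 1.89-fold, edgeR adjusted p = 0.0645) nor in knockout tumors (0.79, SE 0.33, edgeR adjusted p = 0.104). In wild-type tumors it passed when any 1 of the 4 knockout libraries was left out, and with DESeq2 (adjusted p = 0.0103). In knockout tumors it passed without clone 54 in Balb/c, at an edgeR adjusted p of 0.043, or without clone 54 in NSG, at 0.0399. The knockout effect was -0.31 (SE 0.32) in NSG and -0.45 (SE 0.32) in Balb/c, with edgeR adjusted p of 0.682 and 0.375.

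Cxcr2 directs neutrophils toward Cxcl1, Cxcl2 and related chemokines. It was at 58.4 and 79.5 CPM in NSG wild type, 223 and 98.9 in NSG knockout, 233 and 225 in Balb/c wild type, and 35.7 and 156 in Balb/c knockout. The lowest of all 8 values came from clone 54 in Balb/c, and the same clone gave the highest of the NSG values. Clone 69 was 4.37-fold above clone 54 in Balb/c, and clone 54 was 2.26-fold above clone 69 in NSG. Cxcr2 did not pass between hosts in wild-type tumors (1.73, SE 0.63, edgeR adjusted p = 0.0695), where DESeq2 called it (adjusted p = 0.00578) and edgeR did without either Balb/c knockout library. In knockout tumors the difference was -0.75 (SE 0.62, edgeR adjusted p = 0.39), and it became -2.17 with an edgeR adjusted p of 0.0145 without clone 69 in Balb/c. The knockout effect was 1.22 (SE 0.63) in NSG and -1.26 (SE 0.62) in Balb/c, neither past the threshold, and the difference between them was -2.48 (SE 0.88, edgeR adjusted p = 0.164). Without clone 69 in Balb/c this difference was -3.90 with an edgeR adjusted p of 0.0122, a value that then rests on clone 54, and the knockout effect in Balb/c was -2.68 with 0.0121.

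The 10 neutrophil markers, read beside Cxcr2, summed to 1560 and 2200 CPM in NSG wild type, 3850 and 2820 in NSG knockout, 7920 and 6350 in Balb/c wild type, and 871 and 2880 in Balb/c knockout. The log2 ratio of Cxcr2 to this sum was between -5.08 and -4.11 over the 8 libraries. Single markers differed from Cxcr2. In knockout tumors Retnlg was higher in Balb/c by 2.67 (SE 0.62, edgeR adjusted p = 0.0151), against -0.75 for Cxcr2 and a median of -1.06 for the list. Without clone 54 in Balb/c these were 3.30, -0.07 and -0.22. In the NSG knockout Retnlg was at -0.08 and Mmp8 at -0.61 on the log2 scale, against 1.22 for Cxcr2. The list's median there was 0.58, with 2 markers higher and 0 lower at an unadjusted edgeR p under 0.05. In the Balb/c knockout Mmp9 was at 0.21 against -1.26 for Cxcr2. The list's median there was -2.33, with 7 lower and 0 higher at that p. Of all genes, 14% in NSG and 30.9% in Balb/c had such a p. None of the 10 markers was at 0 in both libraries of a group. The part of neutrophil content in the Cxcr2 values was not tested.

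Ccr3 is the receptor for eotaxins on eosinophils and showed the widest host difference of the 9. It was at 1.11 and 1.82 CPM in NSG wild type, 3.42 and 3.38 in NSG knockout, 154 and 183 in Balb/c wild type, and 170 and 314 in Balb/c knockout. The NSG values rest on 16, 22, 32 and 34 counts and the Balb/c values on 1818 to 4305 counts. Every Balb/c library was far above every NSG library. The difference was 6.86 on the log2 scale in wild-type tumors (SE 0.40, 116-fold, edgeR adjusted p = 0.000267) and 6.15 in knockout tumors (SE 0.38, 70.9-fold, edgeR adjusted p = 0.000238). It was called in all 15 alternatives in each genotype. The knockout values were 1.23 (SE 0.42, edgeR adjusted p = 0.285) in NSG and 0.52 (SE 0.29, edgeR adjusted p = 0.258) in Balb/c. Both NSG knockout libraries were above both NSG wild-type libraries.

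The 6 eosinophil markers summed to 9.14 to 23.4 CPM in NSG wild type, 27.3 to 35.1 in NSG knockout, 155 to 211 in Balb/c wild type and 200 to 322 in Balb/c knockout. The log2 ratio of Ccr3 to this sum was -3.68 to -3.02 in NSG and -0.24 to -0.01 in Balb/c, so Ccr3 differed more between hosts than the sum did. Epx, the eosinophil peroxidase gene, was at 0 in all NSG libraries and at 1.53 to 4.57 CPM in Balb/c. Prg2, which encodes major basic protein, reached at most 0.696 CPM in NSG and was at 16.6 to 59.2 CPM in Balb/c. The NSG sum was instead carried by Siglecf at 3.12 to 29.5 CPM and Ear2 at 2.39 to 12.8 CPM, genes that other myeloid cells also transcribe. The part of eosinophil content in the Ccr3 values was not tested.

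**Figure D2:**
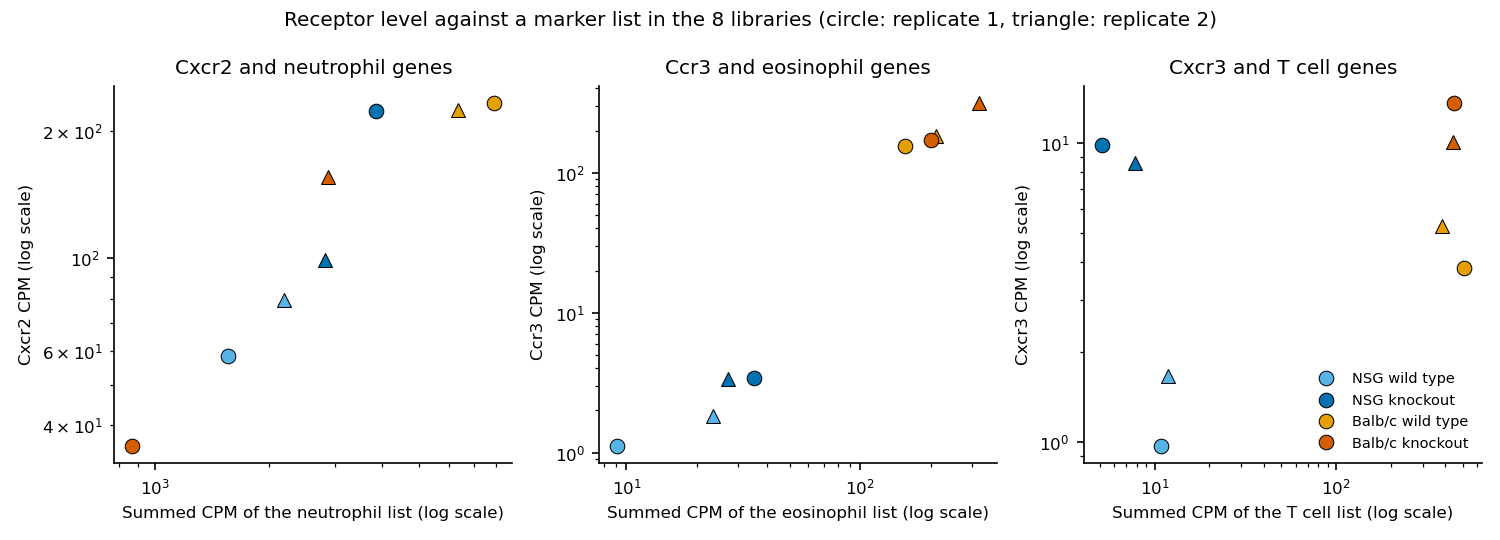
CPM of 3 receptors against the summed CPM of a marker list in the 8 libraries, on log scales. Circles are replicate 1 and triangles replicate 2, colored by group. Cxcr2 and the neutrophil sum lie along 1 band, Ccr3 and the eosinophil sum form a low NSG and a high Balb/c group, and Cxcr3 is at 8.55 to 9.84 CPM in NSG knockout tumors where the T cell sum is lowest.

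Ccr2 and Cx3cr1 mark the main monocyte populations. Ccr2 draws inflammatory monocytes out of the bone marrow toward Ccl2 and related chemokines. It was at 91.9 and 80.1 CPM in NSG wild type, 111 and 165 in NSG knockout, 177 and 252 in Balb/c wild type, and 498 and 298 in Balb/c knockout. The group means rose from NSG wild type through NSG knockout and Balb/c wild type to Balb/c knockout. Ccr2 was higher in Balb/c in wild-type tumors by 1.32 (SE 0.32, 2.49-fold, edgeR adjusted p = 0.0193) and in knockout tumors by 1.52 (SE 0.32, 2.88-fold, edgeR adjusted p = 0.00978). Both calls were lost with cell line as a block, at edgeR adjusted p of 0.0737 and 0.0511. The wild-type call was also lost without the NSG parental tumor (0.0949), the NSG vCas9 tumor (0.119) or the Balb/c vCas9 tumor (0.0963), and the knockout call without clone 54 in NSG (0.057). The knockout effect was 0.69 (SE 0.31, edgeR adjusted p = 0.372) in NSG and 0.89 (SE 0.31, edgeR adjusted p = 0.107) in Balb/c. In Balb/c it passed without clone 69, at 1.22 with an edgeR adjusted p of 0.0237.

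Beside Ccr2, the 4 monocyte markers summed to 6300 to 8580 CPM in NSG and 4110 to 7930 CPM in Balb/c. The log2 ratio of Ccr2 to this sum was -6.56 to -5.70 in NSG and -4.73 to -3.99 in Balb/c. Most of the sum was Fn1, a matrix gene that stromal cells also transcribe, at 3580 to 8100 CPM. Of the other markers, Ly6c2 was higher in Balb/c wild-type tumors by 1.57 (SE 0.42, edgeR adjusted p = 0.0269) and Plac8 by 1.53 (SE 0.34, edgeR adjusted p = 0.0155), next to 1.32 for Ccr2, while F13a1 was lower (-1.66, SE 0.21, edgeR adjusted p = 0.00253). In knockout tumors, where Ccr2 was higher by 1.52, 0 of the 4 markers passed in edgeR and 1 did at an unadjusted p under 0.05, with Ly6c2 at 1.03 (SE 0.41, edgeR adjusted p = 0.094), Plac8 at 0.73 (SE 0.34, edgeR adjusted p = 0.139) and a median of 0.18. The part of monocyte content in the Ccr2 values was not tested.

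Cx3cr1, the receptor for the membrane-bound chemokine Cx3cl1 on patrolling monocytes, resident macrophages and some lymphocytes, was the 1 receptor lower in Balb/c in all 4 lines. It was at 64.9 and 73.1 CPM in NSG wild type, 19.5 and 68.8 in NSG knockout, 7.56 and 11.4 in Balb/c wild type, and 18.0 and 10.4 in Balb/c knockout. Clone 54 gave nearly the same level in both hosts, and in NSG clone 69 was 3.53-fold above it. In wild-type tumors Cx3cr1 was 7.26-fold lower in Balb/c (-2.86 on the log2 scale, SE 0.57, edgeR adjusted p = 0.0103). In knockout tumors the difference of -1.63 (SE 0.54) just missed the threshold (edgeR adjusted p = 0.0525). It passed there on total-count scaling (-1.87, 0.0383), with DESeq2 (0.00775) and without clone 54 in NSG (-2.27, 0.00737). Without clone 69 in NSG it was -0.45, with an edgeR adjusted p of 0.46. The wild-type call was in turn lost when any 1 of the 4 wild-type libraries was left out, at edgeR adjusted p of 0.0552 without either NSG library, 0.073 without the Balb/c parental tumor and 0.0504 without the Balb/c vCas9 tumor. The knockout effect was -0.64 (SE 0.52) in NSG and 0.59 (SE 0.55) in Balb/c, with edgeR adjusted p of 0.595 and 0.489. The NSG value was -0.01 without clone 54 and -1.83 without clone 69, and the Balb/c value 0.02 without clone 54 and 0.93 without clone 69, none of them past the threshold.

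The macrophage list went with Cx3cr1 by its sum in wild-type tumors, where its called markers were split, and against Cx3cr1 in knockout tumors. Its 8 markers summed to 3270 to 3340 CPM in NSG wild type and 2140 to 2470 in Balb/c wild type, with a median log2 fold change of -0.81 and 1 marker called in each direction, where 31.5% of all genes passed. Without clone 54 in Balb/c, which is not among these libraries but enters the estimate of the spread, 5 were called lower and 1 higher, where 39.2% of all genes passed. In knockout tumors they summed to 1710 to 2220 CPM in NSG and 4360 to 10700 in Balb/c, with a median of 1.72, and 7 of 8 were called higher, where 31.1% of all genes passed. Without clone 54 in Balb/c the median was 0.84 and 6 of 8 were called higher, where 29.3% of all genes passed. The log2 ratio of Cx3cr1 to the sum was -6.46 to -5.01 in NSG against -9.22 to -7.76 in Balb/c. The part of macrophage content in the Cx3cr1 values was not tested.

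Ccr7 guides naive lymphocytes and mature dendritic cells toward lymph nodes. It was at 32.0 and 21.0 CPM in NSG wild type, 5.46 and 5.47 in NSG knockout, 184 and 54.5 in Balb/c wild type, and 38.7 and 36.5 in Balb/c knockout. In each host the knockout mean was below the wild-type mean. The Balb/c parental tumor was 3.37-fold above the Balb/c vCas9 tumor. Ccr7 was higher in Balb/c by 2.16 in wild-type tumors (SE 0.50, 4.48-fold, edgeR adjusted p = 0.0169) and by 2.78 in knockout tumors (SE 0.54, 6.87-fold, edgeR adjusted p = 0.00761). Without the Balb/c parental tumor the wild-type difference was 1.03, with an edgeR adjusted p of 0.0641. The wild-type call was lost too without the NSG parental tumor (0.0756) or the NSG vCas9 tumor (0.111), and the knockout call without clone 69 in NSG (0.053).

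Ccr7 had the lowest p of the receptors after Cxcr3 in the knockout comparisons. Its knockout effect was -2.28 in NSG (SE 0.54, unadjusted p = 0.00299, edgeR adjusted p = 0.203) and -1.66 in Balb/c (SE 0.49, unadjusted p = 0.00939, edgeR adjusted p = 0.0775). DESeq2 called both, with adjusted p of 0.000798 and 0.0047, as did edgeR without the filter on low counts (0.0236 and 0.0154). In Balb/c edgeR also called it without the vCas9 tumor (-2.37, adjusted p = 0.0436), a value that then rests on the parental tumor. Without the parental tumor the Balb/c knockout value was -0.53 (edgeR adjusted p = 0.38). The difference of the knockout effect between hosts was 0.62 (SE 0.71, edgeR adjusted p = 0.635).

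The summed level of B cell markers is given beside Ccr7. The 6 markers summed to 191 CPM in the parental tumor, 46.8 CPM in the vCas9 tumor, and 52.3 and 30.6 CPM in the knockout tumors, and the log2 ratio of Ccr7 to the sum was -0.43 to 0.25 in these 4 libraries. In the knockout tumors most of the sum was Cd22, at 45.6 and 20.4 CPM, whose knockout effect in Balb/c was 0.54, while those of the other 5 markers were between -5.40 and -1.81 and the list's median was -3.11, against -1.66 for Ccr7. The ratio in these tumors thus rests on Cd22. Without clone 54 the Cd22 value turned to -0.26, and the list's median was -2.90. In NSG the sum was 3.74 to 6.13 CPM, and Ccr7 at 21.0 and 32.0 CPM in wild-type tumors exceeded it. The 6 dendritic cell markers summed to 166 to 171 CPM in NSG wild type, 121 to 175 in NSG knockout, 104 to 134 in Balb/c wild type and 111 to 138 in Balb/c knockout. Fscn1 made up most of the NSG sums, at 98.8 to 148 CPM, and was at 27.7 to 63.7 CPM in Balb/c. Of the 6, 4 were called higher and 1 lower in Balb/c in each genotype, with medians of 1.33 and 1.93. Of all genes, 31.5% passed in wild-type and 31.1% in knockout tumors. In wild-type tumors the sum was lower in Balb/c, against most of the list, and in knockout tumors the sums of both hosts overlapped. The part of B cell or dendritic cell content in the Ccr7 values was not tested.

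Cxcr3 and Cxcr6 are receptors of effector and tissue-homing lymphocytes. Cxcr3 answers to the interferon-induced chemokines Cxcl9, Cxcl10 and Cxcl11 and is carried by activated T and NK cells. It was at 0.97 and 1.66 CPM in NSG wild type, 9.84 and 8.55 in NSG knockout, 3.82 and 5.27 in Balb/c wild type, and 13.6 and 10.1 in Balb/c knockout. These values rest on 14 and 20, 92 and 86, 45 and 76, and 257 and 138 counts. The means of both knockout groups lay above those of both wild-type groups, whichever the host.

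Cxcr3 showed the largest knockout value of the 9 receptors in NSG, 2.81 on the log2 scale (SE 0.37, 7.03-fold). It ranked 11 among all 15310 genes by p (unadjusted p = 6.86e-05) and did not pass after adjustment (edgeR adjusted p = 0.0841). In Balb/c the knockout value was 1.38 (SE 0.33, 2.60-fold, unadjusted p = 0.00327, edgeR adjusted p = 0.0602). DESeq2 called both, at adjusted p of 1.16e-06 and 0.0178, as did edgeR without the filter on low counts, at 0.00583 and 0.034, and edgeR called the Balb/c difference without clone 69 (1.58, 0.0216). The difference of the knockout effect between hosts was -1.44 (SE 0.49, unadjusted p = 0.0191, edgeR adjusted p = 0.153). Between hosts Cxcr3 was higher in Balb/c wild-type tumors by 1.80 (SE 0.37, 3.48-fold, edgeR adjusted p = 0.0116), a call lost without the NSG parental tumor (0.0869) or the Balb/c vCas9 tumor (0.0667). In knockout tumors the difference was 0.37 (SE 0.32, edgeR adjusted p = 0.423).

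T cell markers were nearly absent and NK cell markers low where Cxcr3 was at 9.84 and 8.55 CPM. In these NSG knockout libraries the 9 T cell markers together summed to 5.14 and 7.76 CPM with Cd3g at 0, and the 7 NK cell markers to 9.52 and 2.88 CPM with Ncr1 at 0. The log2 ratio of Cxcr3 to the T cell sum was 0.94 and 0.14 there, -3.49 and -2.83 in NSG wild type and -7.05 to -5.04 in Balb/c. The profile of the epithelial cadherin gene Cdh1 was among the 3 closest to that of Cxcr3, with 57.8 and 98.7 CPM in NSG wild type, 271 and 206 in NSG knockout, 102 and 200 in Balb/c wild type, and 215 and 250 in Balb/c knockout. The 6 tumor epithelial markers, Cdh1 included, summed to 1110 and 1420, 3070 and 2140, 722 and 1840, and 710 and 3870 CPM in the same order. The part of any of these cell types in the Cxcr3 values was not tested.

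Cxcr6, the receptor for Cxcl16 on tissue-resident T, NKT and innate lymphoid cells, separated the hosts more clearly. It was at 2.42 and 2.73 CPM in NSG wild type, 2.25 and 2.29 in NSG knockout, 22.3 and 65.8 in Balb/c wild type, and 66.5 and 73.7 in Balb/c knockout. The 4 NSG values lay close together on 21 to 35 counts, while in Balb/c the vCas9 tumor was 2.96-fold above the parental tumor. Cxcr6 was higher in Balb/c by 4.10 in wild-type tumors (SE 0.50, 17.1-fold, edgeR adjusted p = 0.00216) and by 4.95 in knockout tumors (SE 0.52, 30.8-fold, edgeR adjusted p = 0.000747). Both calls held in all 15 alternatives, in which the wild-type value ranged from 3.18 to 4.67. The knockout effect was -0.18 (SE 0.55, edgeR adjusted p = 0.903) in NSG and 0.67 (SE 0.41, edgeR adjusted p = 0.298) in Balb/c. The Balb/c value was 0.09 without the parental tumor and 1.57 without the vCas9 tumor, neither past the threshold. The log2 ratio of Cxcr6 to the T cell sum was -2.17 to -1.19 in NSG and -4.51 to -2.54 in Balb/c, with the lowest value in the Balb/c parental tumor.

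Cxcr4, the receptor for Cxcl12, is transcribed by most leukocytes and also by many carcinoma and stromal cells. It was at 135 and 143 CPM in NSG wild type, 145 and 104 in NSG knockout, 531 and 435 in Balb/c wild type, and 427 and 495 in Balb/c knockout. Within each host the wild-type and knockout libraries overlapped, and every Balb/c library was above every NSG library. Cxcr4 was higher in Balb/c by 1.80 in wild-type tumors (SE 0.23, 3.48-fold, edgeR adjusted p = 0.00241) and by 1.89 in knockout tumors (SE 0.23, 3.70-fold, edgeR adjusted p = 0.0012). It was called in all 15 alternatives in each genotype, with values from 1.64 to 2.01 and from 1.66 to 2.14. The knockout effect was -0.15 (SE 0.22, edgeR adjusted p = 0.777) in NSG and -0.07 (SE 0.22, edgeR adjusted p = 0.854) in Balb/c. Cxcr4 had the smallest standard errors of the 9 receptors.

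**Figure D3:**
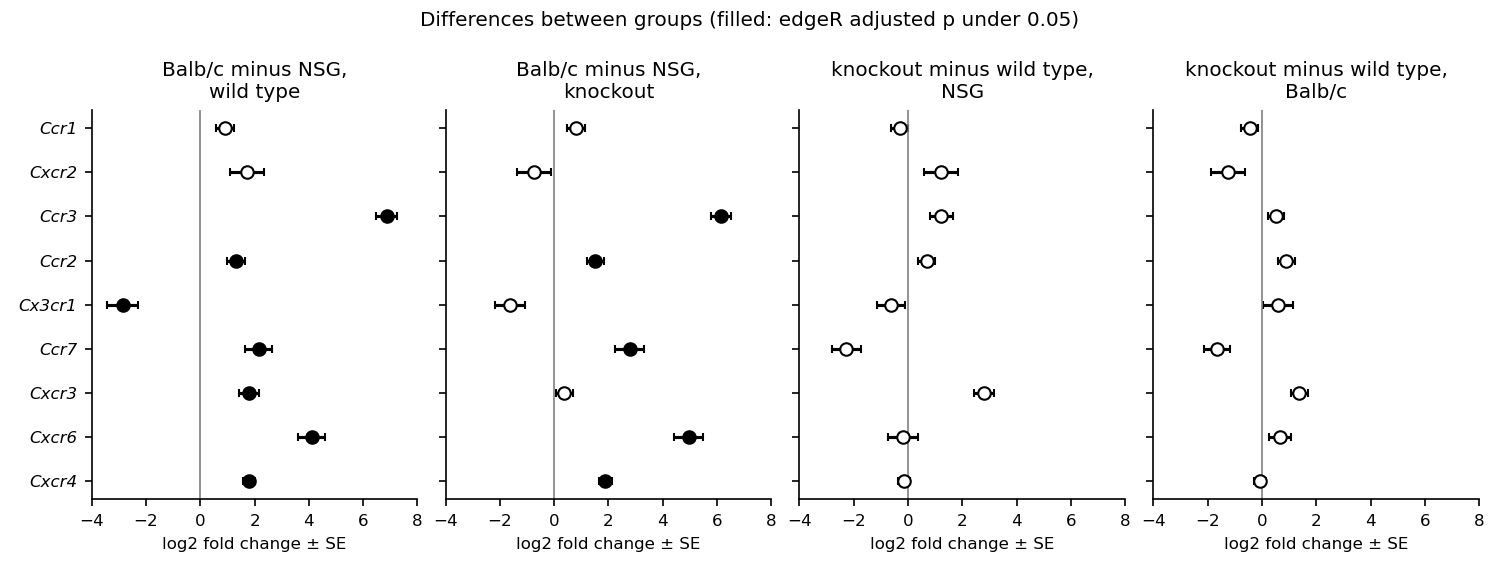
log2 fold change with its standard error for each receptor in the 4 comparisons, from edgeR. Filled points passed an adjusted p of 0.05. In the host comparisons 7 and 5 points are filled, and in the knockout comparisons none of the 9 is.

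Line by line, 7 receptors were higher in Balb/c than in NSG in 4 of 4 lines, Cxcr2 in 3 of 4, and Cx3cr1 was lower in 4 of 4. These are the libraries of the group comparisons again, so the lines add no separate evidence. The share of all genes with the same direction in 4 of 4 lines was not computed. The log2 difference of Ccr3 was 7.12 in the parental line, 6.65 in the vCas9 line, 5.63 in clone 54 and 6.54 in clone 69. For Cxcr4 the 4 lines gave 1.98, 1.61, 1.56 and 2.25, the narrowest range of the 9 receptors on this scale. Clone 54 departed from the other lines for Ccr1, with 0.04 against 0.88 to 1.57, for Cx3cr1, with -0.11 against -3.10 to -2.68, and for Cxcr2, with -2.65 against 0.66 to 2.0. Its Ccr2 difference was in contrast the largest of the 4 lines, at 2.16. Cxcr3 differed by 1.98 and 1.67 in the wild-type lines and by 0.47 and 0.24 in the clones.

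The Balb/c tumor of clone 54, which stood apart in its macrophage and neutrophil markers, was left out to see which receptor values rest on it. The knockout clone 69 is then the single library of its group and is assumed to vary like the others. Between hosts in knockout tumors, 6 receptors then passed, the 5 named above and Ccr1, where 29.3% of all genes did, and the log2 difference was 6.50 for Ccr3, 4.99 for Cxcr6, 2.71 for Ccr7, 1.96 for Cxcr4 and 1.08 for Ccr2. The host difference of Cxcr2 in knockout tumors moved from -0.75 to -0.07. In Balb/c the knockout effect of Ccr2 moved from 0.89 to 0.37, that of Cxcr2 from -1.26 to -0.66 and that of Cxcr3 from 1.38 to 1.04, with 0 receptors past the threshold. The knockout effect of Ccr7 was -1.81 without this tumor (edgeR adjusted p = 0.206), and for Cx3cr1 it moved from 0.59 to 0.02.

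**Figure D4:**
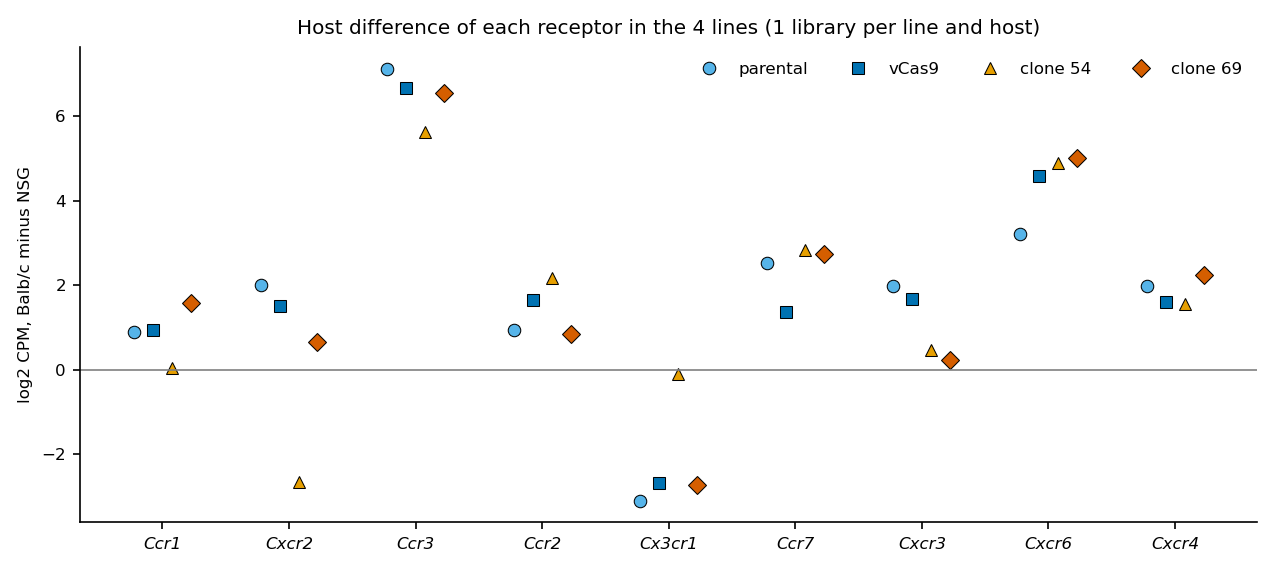
log2 CPM in the Balb/c tumor minus that in the NSG tumor of the same line, for each receptor, with 1 point per line and 1 library per line and host. Points above the line at 0 are higher in Balb/c. Ccr3 and Cxcr6 lie highest, and clone 54 falls near or below 0 for Ccr1, Cx3cr1 and Cxcr2.

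To compare the receptors with each other, levels were divided by exon length. The summed level of the 9 was 314, 324, 366 and 241 CPM per kb in the NSG libraries and 872, 817, 625 and 830 CPM per kb in the Balb/c libraries, in the order parental, vCas9, clone 54, clone 69. Ccr1 and Cxcr4 made up most of it in every library. The mean share of Ccr1 was 55% in NSG wild type, 45.7% in NSG knockout, 39.3% in Balb/c wild type and 32.9% in Balb/c knockout. Cxcr4 held 24.1% and 22.9% in the NSG groups and 31.6% and 35.4% in the Balb/c groups. Ccr3 went from 0.140% and 0.357% of the sum in NSG, the least of the 9, to 6.13% and 9.93% in Balb/c. Cx3cr1 went the other way, from 4.80% and 3.76% in NSG to 0.251% and 0.459% in Balb/c, where it ranked last. Shares depend on all 9 levels at once and were not tested.

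**Figure D5:**
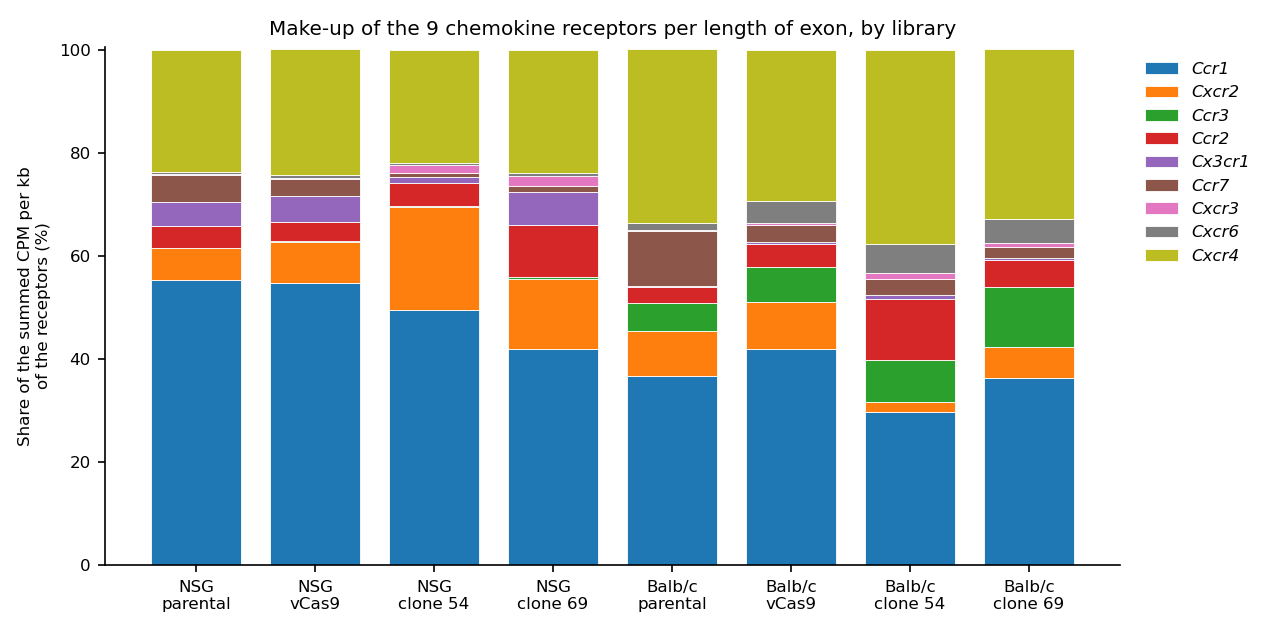
Share of each receptor in the summed CPM per kb of exon of the 9 receptors, in percent, with 1 stacked bar per library. Ccr1 and Cxcr4 fill most of each bar. Ccr3 and Cxcr6 are visible in the Balb/c bars and nearly absent in the NSG bars.

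Other genes of the chemokine system were taken from fixed lists. Of 15 other chemokine receptors, 15 were tested. In wild-type tumors 7 were higher and 0 lower in Balb/c, with a median log2 fold change of 0.76, against 15.3% of all genes higher and 16.2% lower with a median of -0.08. Ccr8, carried by regulatory T cells, was at 0 counts in both NSG libraries and at 5.18 and 4.85 CPM in Balb/c, at least 22.0-fold higher against a floor of 3 counts per library. Cxcr1, a second neutrophil receptor, was at 0.0693 and 0.0828 CPM in NSG and 8.58 and 6.51 in Balb/c. Ccr4, found on regulatory and Th2 cells, was at 0.0693 and 0.248 CPM in NSG and 2.29 and 2.91 in Balb/c, so that the NSG values of both rest on 3 counts or fewer. In knockout tumors 5 were higher and 2 lower, with a median of 1.57, against 15.7% of all genes higher and 15.4% lower with a median of 0.02. Ccr8 was at 0 and 0.0994 CPM in NSG and 10.5 and 6.93 in Balb/c there, and Ccr4 at 0.321 and 0 against 5.03 and 5.40 CPM. The scavenging receptors Ackr2 (-2.31, SE 0.54, edgeR adjusted p = 0.0157) and Ackr3 (-1.27, SE 0.33, edgeR adjusted p = 0.0238) were lower in Balb/c. Without clone 54 in Balb/c, 7 receptors of this list were higher and 1 lower, and Ackr2 did not pass (-1.93, SE 0.64, edgeR adjusted p = 0.0612). Knockout effects passed for 0 of the 15 in either host, with 3 at an unadjusted p under 0.05 in NSG, 1 higher and 2 lower, and 7 in Balb/c, 1 higher and 6 lower. Of all genes, 14% and 30.9% had such a p. Without clone 54 in Balb/c it was 2 higher and 4 lower in NSG and 0 higher and 4 lower in Balb/c, where 19.8% of all genes had such a p in each host. DESeq2 called 2 in NSG (Ccr9 and Xcr1) and 4 in Balb/c (Ackr2, Ackr3, Ccr6 and Cxcr5), all of them lower in the knockout. It called 2.22% of all genes in NSG and 14.4% in Balb/c.

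Of 23 chemokine genes that encode ligands of the 9 receptors, 21 were tested. In wild-type tumors 5 were higher and 1 lower in Balb/c, with a median of -0.14, a count near the 31.5% of all genes that passed. Cxcl9, an interferon-induced ligand of Cxcr3, was higher by 3.64 (SE 0.72, edgeR adjusted p = 0.0101), Cxcl11, another ligand of Cxcr3, by 2.86 (SE 0.49, edgeR adjusted p = 0.00662), and Ccl5, a ligand of Ccr1 and Ccr3, by 2.82 (SE 0.40, edgeR adjusted p = 0.00383). Cxcl1, a neutrophil attractant, was lower (-0.99, SE 0.31, edgeR adjusted p = 0.0446). In knockout tumors 10 were higher and 2 lower, with a median of 0.85, where 31.1% of all genes passed. Cxcl9 was higher there by 5.91 (SE 0.77) and Ccl5 by 5.84 (SE 0.48), at edgeR adjusted p of 0.00159 and 0.000359. The ligands that fell in Balb/c were Cx3cl1 (-1.59, SE 0.47, edgeR adjusted p = 0.0366) and Cxcl1 (-1.31, SE 0.31, edgeR adjusted p = 0.0164). Without clone 54 in Balb/c, 8 ligands were higher and 2, Cxcl1 and Cxcl5, lower, where 29.3% of all genes passed, and Cxcl9 was higher by 4.73 (SE 0.55, edgeR adjusted p = 0.00186) and Cx3cl1 did not pass (-1.03, SE 0.34, edgeR adjusted p = 0.0594).

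In NSG, 1 ligand passed for the knockout effect. Ccl24, an eotaxin that binds Ccr3, was at 25.1 and 19.5 CPM in wild type and at 3.10 and 4.38 CPM in knockout tumors. This is -2.57 on the log2 scale (SE 0.23, edgeR adjusted p = 0.0316). With all 8 libraries it also passed in edgeR on RLE scaling (adjusted p = 0.0321), on total-count scaling (0.0425) and without the low-count filter (0.000436). DESeq2 called it as well (adjusted p = 8.79e-14). The call was lost when any 1 of the 8 libraries was left out, at -2.85 to -2.35 with edgeR adjusted p of 0.0516 to 0.457 (0.0598 without clone 54 in Balb/c), and with the NSG libraries alone (0.123). At an unadjusted p under 0.05, 9 ligands were lower and 1 higher in the NSG knockout, and in Balb/c, where 0 ligands passed after adjustment, 3 were lower and 9 higher. Of all genes, 6.78% were higher and 7.25% lower at that p in NSG, and 16.6% higher and 14.3% lower in Balb/c. The Balb/c count depends on clone 54, since without that tumor 6 ligands were lower and 3 higher, where 19.8% of all genes had such a p. DESeq2 called 5 lower and 0 higher in NSG, and 3 lower and 5 higher in Balb/c, where it called 2.22% and 14.4% of all genes. The ligand sums of Ccr2 and Cxcr3 were highest in clone 54 in Balb/c, at 3670 CPM against 448 to 1020 CPM elsewhere and at 247 CPM against 20.1 to 105 CPM. Cxcl12, the ligand of Cxcr4, was at 46.7 to 124 CPM and passed in 0 of the host and knockout comparisons. For Ccr7 the ligand genes Ccl19 and Ccl21a were read at no more than 3 counts per library and were not tested, and for Cx3cr1 the ligand Cx3cl1 was at 31.1 to 44.9 CPM in NSG and 7.46 to 21.9 CPM in Balb/c.

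Genes that carry the signal of chemokine receptors inside the cell were mostly higher in Balb/c. Of 20 found, 13 were higher and 0 lower in wild-type tumors, with a median of 1.09, and 16 were higher and 0 lower in knockout tumors, with a median of 1.23. Of all genes, 15.3% and 15.7% were higher in these comparisons. In wild-type tumors the kinase genes Ptk2b (2.45, SE 0.31) and Fgr (2.15, SE 0.23) and the genes of the Rac activators Elmo1 (2.13, SE 0.29) and Dock2 (2.03, SE 0.19) had the largest log2 differences. In knockout tumors these were Rgs1 (3.66, SE 0.23) and Rgs2 (2.48, SE 0.18), which encode regulators of G-protein signaling, followed by Dock2 (1.94, SE 0.19). Knockout effects passed for 0 of the 20 in either host, with 4 at an unadjusted p under 0.05 in NSG and 6 in Balb/c, near the 14% and 30.9% of all genes. DESeq2 called 2 in NSG and 4 in Balb/c, where it called 2.22% and 14.4% of all genes.

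The genes most like each receptor were sought among 14178 genes by the root mean square difference of log2(CPM + 0.5), centered on each gene's mean over the 8 libraries. The closest to Ccr1 were Tes, Nedd9 and Rab20, at differences of 0.10 to 0.11. Cxcr4 was closest to Psme2b, Lcp2 and Sh3kbp1, at 0.14 to 0.15, and Cxcr2 to G0s2, Steap4 and Ston2, at 0.22 to 0.25. For Ccr2 they were Tmem229b, Tapbpl and Sept3, at 0.22 to 0.27, and for Cx3cr1 Stc1, Nes and Cdk1, at 0.32 to 0.42. Ccr3 was nearest to Klrc1, Prf1 and Nkg7, genes of cytotoxic lymphocytes, at 0.44 to 0.49, and Cxcr6 to Tbx21, Gzmk and Slc17a6, at 0.28 to 0.31. Ccr7 was nearest to Spib, Plcxd2 and Il7r, at 0.53 to 0.55, and Cxcr3 to Cdh1, Sdr42e1 and Aldh1a2, at 0.48 to 0.50. The least alike neighbors belonged to Ccr7, whose own profile spanned a root mean square of 1.54. No receptor was among the 3 closest genes of another receptor.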

How the data were processed

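RNA of 8 tumors or tumor pools was sequenced, and the authors deposited raw counts for each Ensembl gene identifier in a file for each library. Per the submitters' processing notes, cutadapt 1.13, STAR, HTSeq 0.6.1p1 and DESeq2 were used with the builds mm10 and hg19, whose roles are not stated. The strand setting, the annotation and any filter are not given in the sources used here, so counts of overlapping and antisense genes are uncertain. Groups were taken from host strain and CD95 status in the labels.

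Counts were analysed with edgeR 4.0.16 in R 4.3.3 (TMM scaling, filterByExpr, glmQLFit and glmQLFTest, 4 group means, 4 residual degrees of freedom). The filter kept 15310 of 25006 genes, the biological coefficient of variation common to all genes was 0.244, and p-values were adjusted by Benjamini and Hochberg over all genes tested. Symbols were found for 24942 genes. Because replicates are different lines and not known to be separate animals, p-values measure only the spread between these libraries. An exact permutation of 2 libraries against 2 cannot go below p = 0.333, so none was run. Replicate libraries were distinct, with correlations of log2 CPM from 0.956 to 0.984.

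Libraries of the 2 hosts were paired by the name of the line. As a check, deviations from the group means were correlated between hosts: r was 0.09 for the wild-type lines and -0.35 for the clones. The alternatives were DESeq2 1.42.0, other scalings, no filter on low counts, only the groups compared, cell line as a replicate block, and leaving out each library. The lists without clone 54 in Balb/c and the alternatives for Ccl24 were added after seeing the data.

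The 9 receptors, the marker lists and the lists of ligands, other receptors and signaling genes were chosen with earlier results of these data known. Named were the 9 receptors, the 3 genes most like each receptor, and Fas and Il2rg as checks. From the lists, some genes past the threshold in either direction were named, with others given beside a receptor or an alternative. The named genes of a list are not always those with the largest change. Promoters came from RefSeq, and Ccr7 had none there. The procedure was tested on simulated data. Some genes of these lists are not reported here by name.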

Additional observations from a re-analysis of the deposited data

How the results depend on the processing

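Ccr3, Cxcr4 and Cxcr6 kept their host calls in both genotypes under all 15 alternatives. Over the alternatives of the 45 receptor tests, 562 values kept the direction and the side of the threshold, 40 gained and 16 lost a call, and 12 changed sign, and the cause was not tested. All 12 sign changes came from leaving out 1 library, at small effects. The knockout effect in NSG then ranged from -0.79 to 0.04 for Ccr1 and from -0.42 to 0.06 for Cxcr4, that in Balb/c from -0.29 to 0.09 for Cxcr4, and the host dependence from -0.51 to 0.35 for Ccr1, -0.33 to 0.54 for Ccr2, -0.09 to 1.75 for Ccr7 and -0.13 to 0.36 for Cxcr4.

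With cell line as a replicate block, which leaves 2 residual degrees of freedom, 2073 genes (13.5%) differed between hosts in wild-type tumors. In knockout tumors 2878 genes (18.8%) did, and Ccr2 was the receptor lost in each. With the clones of 1 host exchanged, added after the negative correlation was seen, the host comparisons gave 9 and 8 receptors among 5733 (37.4%) and 5436 (35.5%) of all genes, and the host dependence gave 307 genes and 1 receptor. Fitting the compared groups alone gave 6838 genes (46.7% of those tested) and 9 receptors between hosts in wild-type tumors. In knockout tumors it gave 2450 genes (16.8%) and 5 receptors. For the knockout effect it gave 1 gene in NSG and 0 in Balb/c. Without the low-count filter, the knockout effect gave 133 genes (0.638%) in NSG and 1774 (8.52%) in Balb/c, with 2 receptors in each. The host dependence then gave 674 genes (3.24%) and 1 receptor. DESeq2 gave 340 (2.22%), 2208 (14.4%) and 974 (6.36%) genes, with 2, 2 and 1 receptors. RLE scaling gave 94 genes for the knockout effect in Balb/c. Leaving out 1 library gave 858 to 6361 genes and 3 to 9 receptors between hosts in wild-type tumors, and 2461 to 4640 genes and 4 to 6 receptors in knockout tumors. For the knockout effect it gave 0 to 1 genes and 0 receptors in NSG, 0 to 3886 genes and 0 to 3 receptors in Balb/c, and for the host dependence 0 to 2370 genes and 0 to 1 receptors. The highest counts for the last 2 came without clone 69 in Balb/c.

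Total-count scaling moved the median of all genes from -0.08 to -0.24 in wild-type and from 0.02 to -0.17 in knockout tumors, and the share of calls higher in Balb/c from 48.6% to 36.5% and from 50.5% to 37.3%. No receptor changed direction between hosts under any scaling. The low counts of Ccr3, Cxcr3 and Cxcr6 in NSG limit the precision of their folds.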
